A study of Mus musculus with 4 samples.

Results

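Prg4, Pf4, F7, Maf, Cd163, Lyve1, Folr2, F13a1, Cbr2 and Timd4 are 10 mouse genes grouped here as genes of resident and serosal macrophages. They were picked by symbol from the 54532 genes counted in CD11b+Ly6g+ myeloid-derived suppressor cells (MDSCs) of the lung. The list was selected on measured counts, because Prg4, Pf4, F7 and Maf had fallen in the sFD17 library relative to control and some of them also in the TP5 library. The values against control therefore describe the choice and carry no test. All 10 genes had at least 10 counts in at least 1 library, as did 16369 genes in all.

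The cells came from male C57BL/6 mice aged 6 to 8 weeks in a model of the pre-metastatic niche (PMN), the state of the lung before metastases grow. All 4 groups, the control (Ctrl) included, received 300 μl of medium conditioned by B16F10 melanoma cells (MCM) into the peritoneum daily and an injection of B16F10 cells into the tail vein on day 7, and their lungs were taken on day 10. Ctrl mice are labelled untreated, and the others received TP5, sFD17 or FR17 under the skin from day 3, at a dose the labels write as 40 μM/kg/day. TP5 is the free immunomodulatory pentapeptide thymopentin. FR17 joins TP5 by a linker that the protease MMP2 cuts to a peptide that then assembles, and sFD17 is built alike with the TP5 residues in scrambled order, which leaves assembly and removes the activity of TP5. Each group is 1 library from the pooled cells of 10 to 12 mice, so differences between libraries have no replicate check, and the 95% intervals below cover counting error only. No library of mice without MCM and tumour cells was analysed here.

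The libraries held 15543071 to 19638228 counts. The 18 neutrophil markers summed to 722897 counts in Ctrl and 752585 to 817811 in the peptide libraries, and the scaled ratios to Ctrl were 1.04, 1.33 and 0.832 in the order TP5, sFD17 and FR17. The median of these markers in FR17 was -0.10 on the log2 scale and turned to 0.14 with library size alone. The sort required CD11b, which many macrophages carry, and Ly6g, a neutrophil marker that they mostly lack. The 14 core macrophage markers, among them the complement genes C1qa to C1qc, Csf1r and Mertk, summed to 130761 counts in Ctrl, 94356 in TP5, 48122 in sFD17 and 202551 in FR17, with scaled ratios of 0.695, 0.471 and 1.14. For the genes of the sort itself the ratios to Ctrl were 0.973, 1.14 and 0.792 for Itgam, which encodes CD11b, and 1.34, 1.52 and 1.24 for Ly6g, in TP5, sFD17 and FR17. In such bulk RNA, fewer macrophages and less RNA of these genes per macrophage cannot be told apart.

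Resident macrophages live in tissues for long periods and keep them in order: they engulf dying cells, bind haemoglobin and matrix fragments, and release factors that act on vessels and clotting. In the lung, alveolar macrophages lie in the air spaces, while interstitial macrophages lie around vessels and airways and can carry the receptors LYVE1, FOLR2 and CD163. Serosal macrophages live in the fluid of the pleural and peritoneal cavities, and the large ones depend on the transcription factor GATA6 and carry TIMD4.

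The 10 genes lie on 7 chromosomes of GRCm38 and do not neighbour each other, apart from sharing a chromosome in the pairs F7 with Maf, Lyve1 with Folr2 and Cbr2 with Timd4. Stretches before the start of 7 of them were matched in RefSeq's promoter table (GRCm38.p6), giving 9 windows of 250 bases. These were searched on both strands for the core of the MAF site, since Maf is itself among the genes, for the core bound by PU.1, the general factor of myeloid cells, and for the GATA motif of serosal macrophages. The MAF core TGCTGA occurred in 3 of 9 windows and in 16.1% of 32851 windows of all genes. The PU.1 core GAGGAA occurred in 4 of 9 windows and in 23.3% of all. AGATAA, the GATA motif, occurred in 0 of 9 and in 9.99% of all. The windows of Pf4 (chr5:90772185-90772434, plus strand), F7 (chr8:13025784-13026033, plus strand), F13a1 (chr13:37050245-37050494, minus strand) and Timd4 (chr11:46810549-46810798, plus strand) are shown because they hold a match and lie wholly outside the gene. They are written 5′ to 3′ on the gene's strand, with the matches, or their reverse complements TTCCTC and TCAGCA, in capitals.
Pf4: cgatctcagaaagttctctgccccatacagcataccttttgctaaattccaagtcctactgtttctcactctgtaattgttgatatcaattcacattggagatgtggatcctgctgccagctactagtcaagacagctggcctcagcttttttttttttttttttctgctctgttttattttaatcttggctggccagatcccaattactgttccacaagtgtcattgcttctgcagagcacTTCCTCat
F7: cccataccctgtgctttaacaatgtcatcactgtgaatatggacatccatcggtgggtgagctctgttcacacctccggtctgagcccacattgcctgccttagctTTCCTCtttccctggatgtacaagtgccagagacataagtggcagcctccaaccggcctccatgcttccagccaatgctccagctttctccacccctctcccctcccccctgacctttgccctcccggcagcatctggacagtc
F13a1: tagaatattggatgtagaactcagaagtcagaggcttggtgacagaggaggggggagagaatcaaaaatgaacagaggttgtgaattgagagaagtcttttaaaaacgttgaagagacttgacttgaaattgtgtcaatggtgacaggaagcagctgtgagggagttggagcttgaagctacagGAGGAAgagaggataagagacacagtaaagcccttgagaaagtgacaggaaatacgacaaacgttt
Timd4: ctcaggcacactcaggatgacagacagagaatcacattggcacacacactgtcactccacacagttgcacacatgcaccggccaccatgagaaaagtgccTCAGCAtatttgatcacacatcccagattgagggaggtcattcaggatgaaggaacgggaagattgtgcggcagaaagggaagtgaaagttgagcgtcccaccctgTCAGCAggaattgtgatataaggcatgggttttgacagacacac
The PU.1 core began 8 bases before the start of Pf4, 144 before F7 and 66 before F13a1. In Timd4, the MAF core began 150 and 44 bases before the start. A match is a description of the letters and not a binding site, and no measurement of binding was made here.

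All 10 genes were lower in sFD17 and in TP5 than in Ctrl, with intervals of the ratio below 1 apart from Cbr2 in sFD17 under DESeq2 size factors (0.952, 0.901 to 1.01), while in FR17 9 were above Ctrl, 7 of them with intervals above 1, and Prg4 was below. In sFD17, 9 of 10 were at least 2-fold lower than in Ctrl and 0 were 2-fold higher, against 6.47% and 5.32% of the 16369 genes, and their median log2 fold change was -2.16 beside -0.03 over all genes. In TP5, 8 of 10 were 2-fold lower and 0 were 2-fold higher, against 4.99% and 3.2% of all genes, with a median of -1.38 beside 0.00. Maf and Cd163 were near that threshold in TP5, with intervals that hold a 2-fold difference, and with library size as the only scaling 6 of 10 were 2-fold lower there, against 4.7% of all genes. In FR17, none of the 10 moved 2-fold from Ctrl in either direction, against 3.58% of all genes lower and 3.92% higher, with a median of 0.26 beside 0.02. The list was chosen for the fall in sFD17 and TP5, so nothing is read from these counts. By library size alone, 9.37% of all genes were 2-fold lower and 3.54% higher in sFD17, and 1.93% and 6.67% in FR17. Among the 6 genes that the choice does not name, Cd163, Lyve1, Folr2, F13a1 and Timd4 were 2-fold lower in both sFD17 and TP5, while Cbr2 was not in either.

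**Figure D1:**
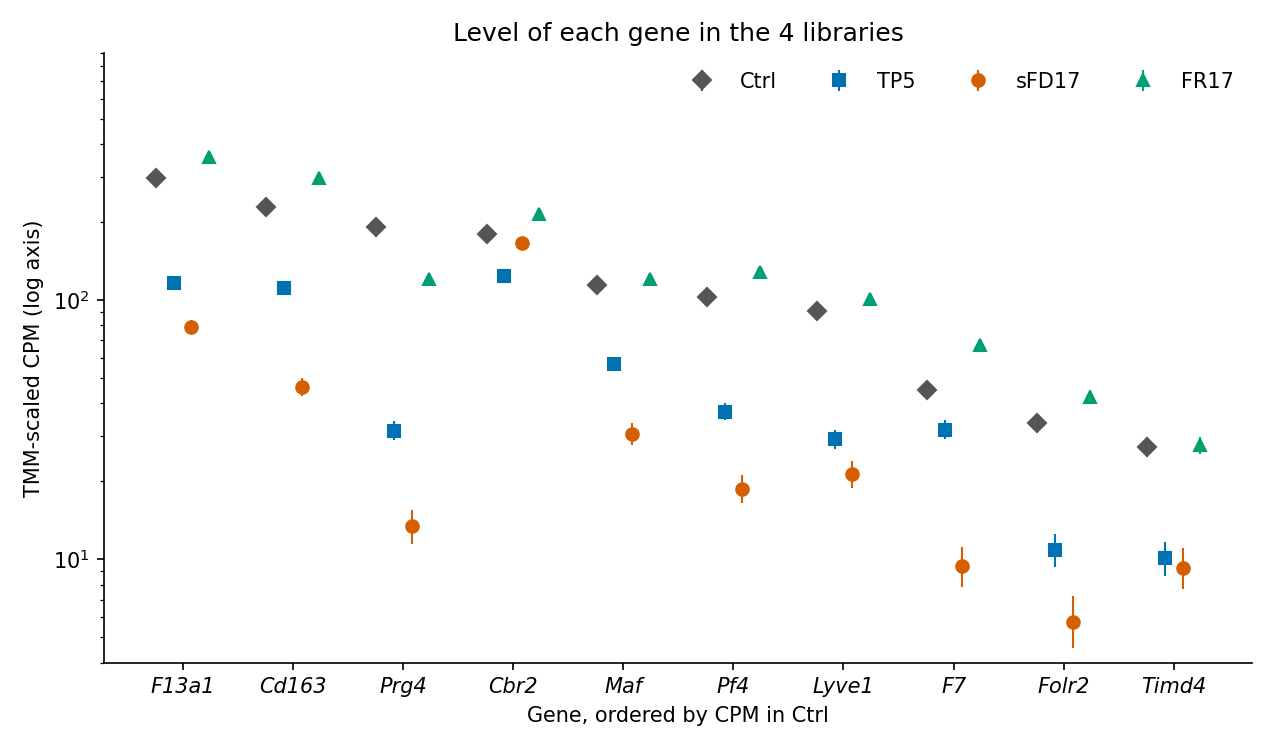
Level of each of the 10 genes in the 4 libraries, in CPM, the count scaled to library size with TMM factors (log axis). Points are single libraries, bars are exact 95% Poisson intervals of the count, and 8 of 10 genes share the order FR17, Ctrl, TP5, sFD17 from high to low.

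Prg4 and Pf4 encode secreted proteins outside the clotting cascade, and Prg4 fell most of the 10. Prg4 encodes lubricin, the mucin-like glycoprotein that lubricates joints and serosal surfaces (chromosome 1, 150449412 to 150466165, minus strand). It had 3226 counts in Ctrl, 550 in TP5, 177 in sFD17 and 2764 in FR17. Scaled for library size it was 14.2-fold lower in sFD17 than in Ctrl (95% interval 12.2 to 16.7), 6.09-fold lower in TP5 (5.56 to 6.68) and 1.59-fold lower in FR17 (1.51 to 1.67). Prg4 was thus below Ctrl in every peptide library, the only gene of the 10 below Ctrl in FR17. Pf4 encodes the chemokine CXCL4, best known from platelet granules (chromosome 5, 90772435 to 90773383, plus strand). Its counts were 1733 in Ctrl, 653 in TP5, 247 in sFD17 and 2954 in FR17. Pf4 was 5.48-fold lower in sFD17 (4.80 to 6.29), 2.76-fold lower in TP5 (2.52 to 3.02) and 1.25-fold higher in FR17 (1.18 to 1.33).

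The 14 platelet and megakaryocyte markers summed to 1260 counts in Ctrl, 1498 in TP5, 1149 in sFD17 and 1916 in FR17, which are ratios to Ctrl of 1.14, 1.17 and 1.12. Without Rgs18, the most counted of them in Ctrl, the ratios were 1.18, 1.41 and 1.24, and Gp1bb was at 0 in all 4 libraries. Their median log2 fold change in sFD17 was 0.27, or -0.11 with libraries scaled by neutrophil markers. The markers differed among themselves, and in sFD17 Rgs18 (444, 500, 250 and 543 counts in Ctrl, TP5, sFD17 and FR17) was at 0.721 of Ctrl and Clec1b (130, 109, 71 and 143) at 0.699, while Itgb3 (422, 569, 535 and 609) was at 1.62. Ppbp, a platelet chemokine gene picked out after its values were seen, had 14, 28, 12 and 111 counts. Pf4 had 124 counts for each count of Ppbp in Ctrl (73.6 to 227), 23.3 in TP5, 20.6 in sFD17 (11.6 to 40.4) and 26.6 in FR17 (22.0 to 32.5), so the ratio was lower than in Ctrl in all 3 peptide libraries. The part of platelets in the level of Pf4 was not tested.

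F7 and F13a1 encode a factor at either end of clotting. F7 encodes factor VII, which starts the cascade together with tissue factor (chromosome 8, 13026034 to 13035809, plus strand). It had 761 counts in Ctrl, 556 in TP5, 124 in sFD17 and 1545 in FR17. Its level was 4.80-fold lower in sFD17 (3.96 to 5.85), 1.42-fold lower in TP5 (1.27 to 1.59) and 1.49-fold higher in FR17 (1.37 to 1.63). F7 had the largest rise of the 10 in FR17 against Ctrl and, with Cbr2, the smallest fall in TP5. F13a1 encodes the A subunit of factor XIII, the transglutaminase that crosslinks fibrin (chromosome 13, 36867178 to 37050244, minus strand). It had 5019 counts in Ctrl, 2048 in TP5, 1044 in sFD17 and 8188 in FR17. That is 3.76-fold lower in sFD17 (3.51 to 4.02), 2.54-fold lower in TP5 (2.42 to 2.68) and 1.20-fold higher in FR17 (1.16 to 1.24).

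Other genes of clotting and of its dissolution moved unevenly. Of 15 that were tested, 3 were at least 2-fold lower in sFD17, 1 in TP5 and 0 in FR17, and none was 2-fold higher in any of the 3, beside the 6.47%, 4.99% and 3.58% of all genes that were lower. Those lower in sFD17 include Tfpi, which encodes the inhibitor of the factor VII pathway (113, 48, 28 and 180 counts in Ctrl, TP5, sFD17 and FR17), and Pros1, which encodes protein S (966, 708, 268 and 1659). F3, which encodes tissue factor, the partner of factor VII, and which was picked out after its values were seen, had 854, 531, 1037 and 592 counts. It was 1.55 times the Ctrl level in sFD17 (1.42 to 1.70) and 0.510 times that level in FR17 (0.459 to 0.567).

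Maf, the transcription factor among the 10, encodes c-MAF, which acts in the identity of tissue macrophages (chromosome 8, 115682942 to 115707794, minus strand). It had 1933 counts in Ctrl, 996 in TP5, 403 in sFD17 and 2770 in FR17. Maf was 3.75-fold lower in sFD17 (3.36 to 4.18) and 2.02-fold lower in TP5 (1.87 to 2.18), while the ratio of FR17 to Ctrl was 1.05 with an interval that holds 1 (0.995 to 1.12). Among 18 other transcription factors of tissue macrophages, 2 were at least 2-fold lower in sFD17, namely Gata6 (57, 25, 12 and 69 counts) and Bhlhe41 (89, 69, 32 and 172), 2 in TP5 and 0 in FR17. Of all genes, 6.47% were that much lower in sFD17, 4.99% in TP5 and 3.58% in FR17. Spi1, which encodes PU.1, had 14474, 13453, 13316 and 14686 counts, and its ratios to Ctrl were 0.895, 1.18 and 0.747.

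Cd163, Lyve1, Folr2 and Timd4 encode receptors for ligands that macrophages take up or bind. Cd163 encodes the scavenger receptor for haemoglobin bound to haptoglobin (chromosome 6, 124304656 to 124330527, plus strand), and had 3879 counts in Ctrl, 1954 in TP5, 611 in sFD17 and 6812 in FR17. It was 4.96-fold lower in sFD17 (4.55 to 5.41), 2.06-fold lower in TP5 (1.95 to 2.18) and 1.29-fold higher in FR17 (1.24 to 1.34). Lyve1 encodes a receptor for hyaluronan, known both from lymphatic vessels and from macrophages around blood vessels (chromosome 7, 110850607 to 110863239, minus strand). Its counts were 1533 in Ctrl, 510 in TP5, 282 in sFD17 and 2332 in FR17, which is 4.25-fold lower in sFD17 (3.74 to 4.84), 3.12-fold lower in TP5 (2.82 to 3.46) and 1.12-fold higher in FR17 (1.05 to 1.19). The lymphatic markers were few in all libraries, with a sum over 8 genes of 206 to 321 counts and ratios to Ctrl of 0.963, 1.09 and 0.972. Pdpn, which other cells also express, made up 166, 196, 137 and 163 of these, and without it the ratios were 0.588, 1.15 and 1.51. Prox1, the defining factor of lymphatic endothelium, had 25 counts in Ctrl, 13 in TP5, 5 in sFD17 and 42 in FR17. Its ratio to Ctrl had an interval without 1 only in sFD17, at 0.256 (0.0765 to 0.681), and Flt4, the lymphatic growth factor receptor, was at 0.960 there (0.491 to 1.84). Of the 6 lymphatic markers tested, 3 were lower and 3 higher in sFD17, with a median log2 fold change of 0.01. With library size alone or neutrophil scaling, 4 were lower and 2 higher there, with medians of -0.19 and -0.38. The part of lymphatic cells in the level of Lyve1 was not tested.

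Folr2 encodes folate receptor beta (chromosome 7, 101839988 to 101857194, minus strand), and had 569 counts in Ctrl, 190 in TP5, 76 in sFD17 and 972 in FR17. It was 5.85-fold lower in sFD17 (4.60 to 7.53), 3.11-fold lower in TP5 (2.63 to 3.68) and 1.26-fold higher in FR17 (1.13 to 1.40). Timd4 encodes TIM-4, which binds phosphatidylserine on dying cells (chromosome 11, 46810800 to 46844332, plus strand), and had 459, 177, 122 and 632 counts in the same order. It was 2.94-fold lower in sFD17 (2.40 to 3.62) and 2.69-fold lower in TP5 (2.26 to 3.22), and its ratio in FR17 was 1.01 (0.897 to 1.15). Timd4 was the member that least separated sFD17 from TP5, with a ratio of 0.916 between them and an interval that holds 1 (0.721 to 1.16), which became 0.761 (0.599 to 0.964) with library size alone.

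Other genes of the pathways of these receptors moved unevenly, and their counts stand beside 6.47%, 4.99% and 3.58% of all genes 2-fold lower and 5.32%, 3.2% and 3.92% higher in sFD17, TP5 and FR17. In the list of apoptotic cell uptake and scavenging, 7 of 19 genes were at least 2-fold lower in sFD17 and 1 was 2-fold higher, 3 were 2-fold lower in TP5 and 0 moved 2-fold in FR17. Those lower in sFD17 include Cd5l, which encodes a secreted scavenger protein of macrophages (748, 232, 68 and 799 counts in Ctrl, TP5, sFD17 and FR17), Stab1, a scavenger receptor (6487, 3736, 1372 and 11580), and Gas6, a bridge between dying cells and the receptor MERTK (1737, 691, 353 and 3151). Stab1, Gas6 and Cd36 are also in the list of macrophages around vessels below. Mertk is also a core macrophage marker and Pros1 also a clotting gene, so the counts of these lists share genes. In haem and iron handling, the pathway that CD163 feeds, 2 of 13 genes were 2-fold lower in sFD17, 1 in TP5 and 0 in FR17. Of 11 genes of hyaluronan binding and turnover, 0 were 2-fold lower in sFD17 or TP5 and 1 in FR17, and 1, 3 and 1 were 2-fold higher in sFD17, TP5 and FR17. Of 6 other genes of folate uptake, 1 was 2-fold lower in sFD17 and none moved 2-fold in TP5 or FR17.

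Cbr2 stood apart from the other 9. It encodes the lung carbonyl reductase, an enzyme known from airway and alveolar epithelium as well as from macrophages (chromosome 11, 120729489 to 120732114, minus strand). It had 3032 counts in Ctrl, 2178 in TP5, 2192 in sFD17 and 4941 in FR17. Its ratio to Ctrl was 0.925 in sFD17 (0.875 to 0.978), 0.692 in TP5 (0.654 to 0.731) and 1.20 in FR17 (1.15 to 1.26), and it was the only gene of the 10 with a higher level in sFD17 than in TP5. Beside it, the 11 club and alveolar type 2 cell markers summed to ratios of 1.49 in TP5, 1.99 in sFD17 and 1.18 in FR17, or 1.37, 1.61 and 1.15 without Scgb1a1. Of the 11, 8 were higher and 3 lower than Ctrl in both TP5 and sFD17, 2 of them 2-fold lower in TP5 (4.99% of all genes) and 4 of them 2-fold higher in sFD17 (5.32%). In sFD17 the 2-fold counts over the 11 markers were 4 higher and 0 lower. They became 1 higher and 1 lower with library size alone, and 0 higher and 2 lower with neutrophil scaling. Scgb1a1, the main secretory product of club cells, had 9541, 15350, 16131 and 15455 counts in Ctrl, TP5, sFD17 and FR17, and Cyp2f2, a club cell cytochrome, had 578, 876, 1131 and 765. Their part in the level of Cbr2 was not tested.

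**Figure D2:**
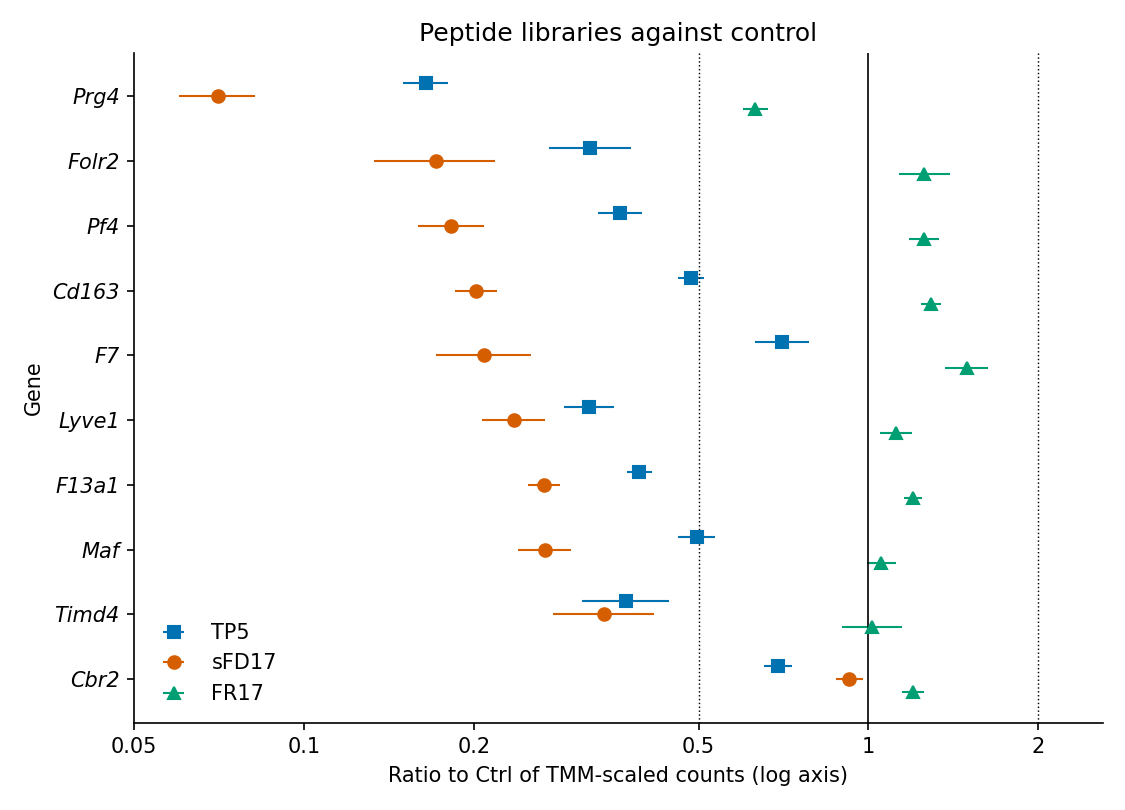
Ratio of each peptide library to Ctrl for the 10 genes (log axis), with bars for exact 95% intervals of the pair of counts and dotted lines at 2-fold. Prg4 lies farthest to the left in sFD17 and TP5 and is the only gene left of 1 in FR17, while Cbr2 lies within 2-fold of Ctrl in all 3 libraries.

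Per kilobase of exon, which allows genes to be set side by side, the order of the 10 genes changed between libraries, with Prg4 in place 3 in Ctrl and in place 10 in sFD17. In Ctrl, Pf4 (142 CPM per kb) and Cbr2 (135) led with an interval of their ratio that holds 1, and Prg4 (44.6), F13a1 (44.1) and Cd163 (42.1) followed, of which Prg4 and F13a1 could not be set in order. Maf (13.9) and Timd4 (12.5) were lowest. In sFD17, Cbr2 (125) stood 4.82-fold above Pf4 (26.0), and Prg4 (3.13) was last, behind Maf (3.71), with an interval of that ratio that holds 1. From F7 in place 6 down to Prg4, each ratio to the next gene in sFD17 had an interval that holds 1. In FR17, Pf4 (178) and Cbr2 (162) again led, and Prg4 (28.1) was in place 7, as it was in TP5 (7.33), though in both libraries it could not be set in order with Folr2, the next gene.

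The 10 genes together held 22144 counts in Ctrl, 9812 in TP5, 5278 in sFD17 and 33910 in FR17. That is 0.129% of the library in Ctrl, 0.0572% in TP5, 0.0340% in sFD17 and 0.173% in FR17. Scaled by library, the sum was 0.427, 0.305 and 1.13 times that of Ctrl in TP5, sFD17 and FR17. The makeup of the sum moved as well. Cbr2 made up 13.7% of it in Ctrl (Wilson 95% interval 13.2 to 14.2), 22.2% in TP5 (21.4 to 23.0), 41.5% in sFD17 (40.2 to 42.9) and 14.6% in FR17 (14.2 to 15.0). Prg4 made up 14.6% in Ctrl (14.1 to 15.0), 5.61% in TP5 (5.17 to 6.08), 3.35% in sFD17 (2.90 to 3.87) and 8.15% in FR17 (7.86 to 8.45). Prg4 thus took a smaller share than in Ctrl in every peptide library, FR17 included, while the share of F13a1 stayed between 19.8% and 24.1%. Each share depends on the others. For each count of Cd163, F13a1 had 1.29 counts in Ctrl (1.24 to 1.35) and 1.71 in sFD17 (1.54 to 1.89). It had 1.05 in TP5 (0.985 to 1.12) and 1.20 in FR17 (1.16 to 1.24).

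**Figure D3:**
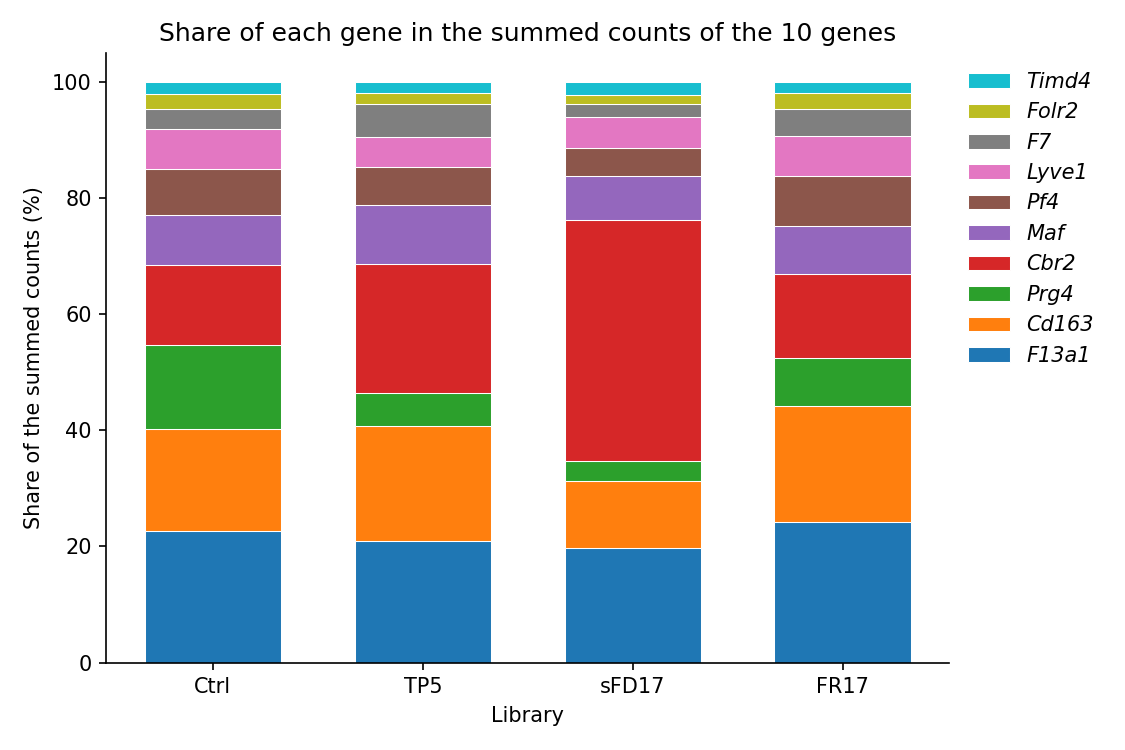
Share of each gene in the summed counts of the 10 genes, in percent, for each of the 4 libraries. Cbr2 grows from 13.7% in Ctrl to 41.5% in sFD17, and Prg4 shrinks from 14.6% to 3.35%.

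Counts of one gene per count of another, within the same library, do not depend on how libraries are scaled. For each count of Cd163, Prg4 had 0.832 counts in Ctrl (0.793 to 0.872), 0.281 in TP5 (0.256 to 0.310), 0.290 in sFD17 (0.244 to 0.343) and 0.406 in FR17 (0.388 to 0.424). Prg4 was thus lower beside Cd163 in all 3 peptide libraries. F7 per Cd163 was 0.196 in Ctrl (0.181 to 0.212) and 0.203 in sFD17 (0.166 to 0.247), intervals that overlap, but 0.285 in TP5 (0.258 to 0.313) and 0.227 in FR17 (0.214 to 0.240), both with intervals above that of Ctrl. Pf4 per Cd163 was 0.447 in Ctrl (0.422 to 0.473), 0.404 in sFD17 (0.347 to 0.469) and 0.434 in FR17 (0.415 to 0.453), and lower in TP5 at 0.334 (0.305 to 0.365). Cbr2 per Cd163 was 0.782 in Ctrl (0.745 to 0.820), 1.11 in TP5 (1.05 to 1.19), 3.59 in sFD17 (3.28 to 3.93) and 0.725 in FR17 (0.699 to 0.753).

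The core macrophage markers were also lower in sFD17 and TP5, so the 10 genes were set beside them. The scaled sum of the 14 markers was 0.695 of Ctrl in TP5, 0.471 in sFD17 and 1.14 in FR17. Per core macrophage count, the summed 10 genes were at 0.614 of Ctrl in TP5 (0.600 to 0.629), 0.648 in sFD17 (0.628 to 0.667) and 0.989 in FR17 (0.972 to 1.01). The 10 genes were chosen for their fall in sFD17 and TP5 and the core markers were not, so nothing is read from this difference. Taken gene by gene on this scale, 6 of 10 were at least 2-fold lower in sFD17, against 2.16% of all genes lower and 54.8% higher, with Prg4 lowest at 0.149 (0.127 to 0.173) and Cbr2 above Ctrl at 1.96 (1.86 to 2.08). In TP5, 3 of 10 were 2-fold lower, against 2.8% of all genes lower and 12.8% higher, with Prg4 at 0.236 (0.215 to 0.259), and the intervals of F7 (1.01) and Cbr2 (0.995) held 1. In FR17, 0 moved 2-fold, against 7.41% lower and 3.78% higher, and Prg4 was lowest at 0.553 (0.526 to 0.582). Against the sum of the 16 alveolar macrophage markers instead, the 10 genes were at 0.446, 0.683 and 0.826 in TP5, sFD17 and FR17. Chil3 alone held 45908 of the 68520 counts of that sum in Ctrl, and the 10 genes were not set against the sum without it. Gene by gene on that scale, 6 of 10 were 2-fold lower in TP5, against 5.47% of all genes lower and 5.21% higher, and F7 at 0.735 (0.657 to 0.821) and Cbr2 at 0.722 (0.683 to 0.763) were below Ctrl. In sFD17, 5 were 2-fold lower and 1 higher, against 2% and 60.6% of all genes, and in FR17 1 was lower and 0 higher, against 13.6% and 2.54%. The alveolar markers themselves summed to 0.958, 0.447 and 1.36 of Ctrl, or 0.889, 0.626 and 1.18 without Chil3. Scaled by library, 2, 8 and 0 of the 16 were at least 2-fold lower in TP5, sFD17 and FR17, and 0 were 2-fold higher. Of all genes, 4.99%, 6.47% and 3.58% were that much lower. The medians of the 16 were -0.51, -1.20 and 0.47 on the log2 scale. In sFD17, 15 were lower than Ctrl, with Ear1 at 0.0723 beside 0.0702 for Prg4, and Itgax was higher at 1.13.

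**Figure D4:**
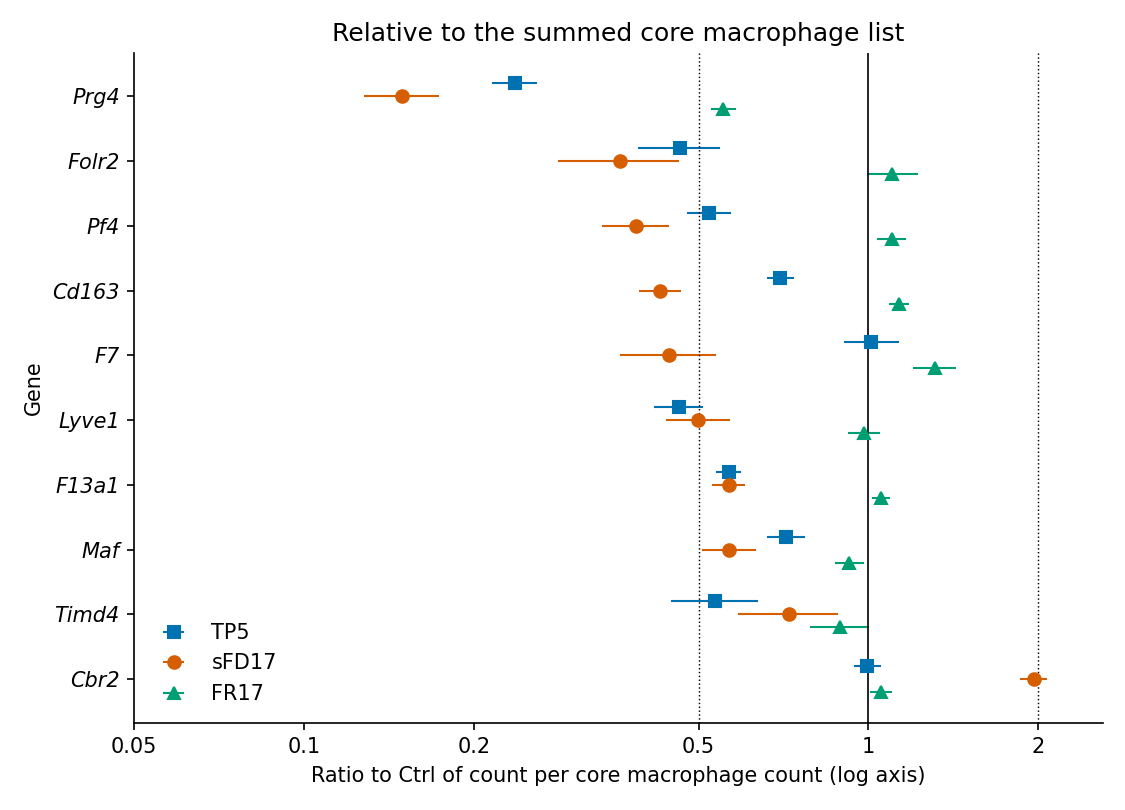
Ratio to Ctrl of each gene's count per summed core macrophage count (log axis), with exact 95% intervals and dotted lines at 2-fold. In sFD17, 9 of 10 genes lie left of 1 and Cbr2 lies at 1.96, and Prg4 is the lowest gene in all 3 peptide libraries.

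Core macrophage genes differed among themselves in the same libraries. Csf1r, the receptor for the macrophage growth factor, had 16058, 15428, 11959 and 22343 counts in Ctrl, TP5, sFD17 and FR17, with ratios to Ctrl of 0.925, 0.953 and 1.02. C1qa, a complement gene of macrophages, had 12261, 7170, 2843 and 20563, with ratios of 0.563, 0.297 and 1.23. Mertk, the engulfment receptor, had 1087, 720, 233 and 1714, with ratios of 0.638, 0.274 and 1.16. Of the 14 core markers 7 were 2-fold lower in sFD17, 0 in TP5 and 0 in FR17, beside 6.47%, 4.99% and 3.58% of all genes.

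Genes known from the same macrophages were grouped in 2 lists, for macrophages around vessels that carry LYVE1 and for large macrophages of the serosal cavities. Of 22 perivascular genes, 16 were at least 2-fold lower in sFD17, 7 in TP5 and 0 in FR17, and 0 were 2-fold higher in any of them, with medians of -1.84, -0.81 and 0.24 on the log2 scale. Of all genes 6.47%, 4.99% and 3.58% were lower by that much, shares that also stand beside the serosal genes. Among them were Mrc1, the mannose receptor (8819, 5852, 1652 and 14180 counts in Ctrl, TP5, sFD17 and FR17), Selenop, a selenium transport protein (14580, 8200, 3243 and 22667), and the lectins Fcna (1060, 253, 74 and 1420) and Cd209f (749, 139, 64 and 1389). Fcna was at 0.0894 of Ctrl in sFD17 and Cd209f at 0.179 in TP5, while in FR17 they were at 0.986 and 1.36.

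Of 24 serosal genes, 13 were at least 2-fold lower in sFD17, 11 in TP5 and 0 in FR17, and 0 were 2-fold higher, with medians of -1.37, -0.89 and -0.38. Gata6, the defining factor of large serosal macrophages, had 57, 25, 12 and 69 counts in the 4 libraries. Alox15, a lipoxygenase, had 2267, 836, 218 and 2324, and Vsig4, a complement receptor, had 121, 20, 13 and 82. Thbs1, which held the most counts of the list, went the other way at 1.86 of Ctrl in sFD17. In FR17, 22 of the 24 serosal genes were lower than Ctrl, none by 2-fold on the log2 scale with its prior count, though Vsig4 lay at the threshold with a ratio of 0.499, and Prg4 was likewise below Ctrl there, while 16 of the 22 perivascular genes were higher. With library size as the only scaling, 14 of 24 serosal genes were lower in FR17 and 10 higher, and their median was -0.13 beside 0.26 over all genes. The tests of these lists would rest on 1 library per group, so none was run, and the lists were drawn up with earlier results known.

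**Figure D5:**
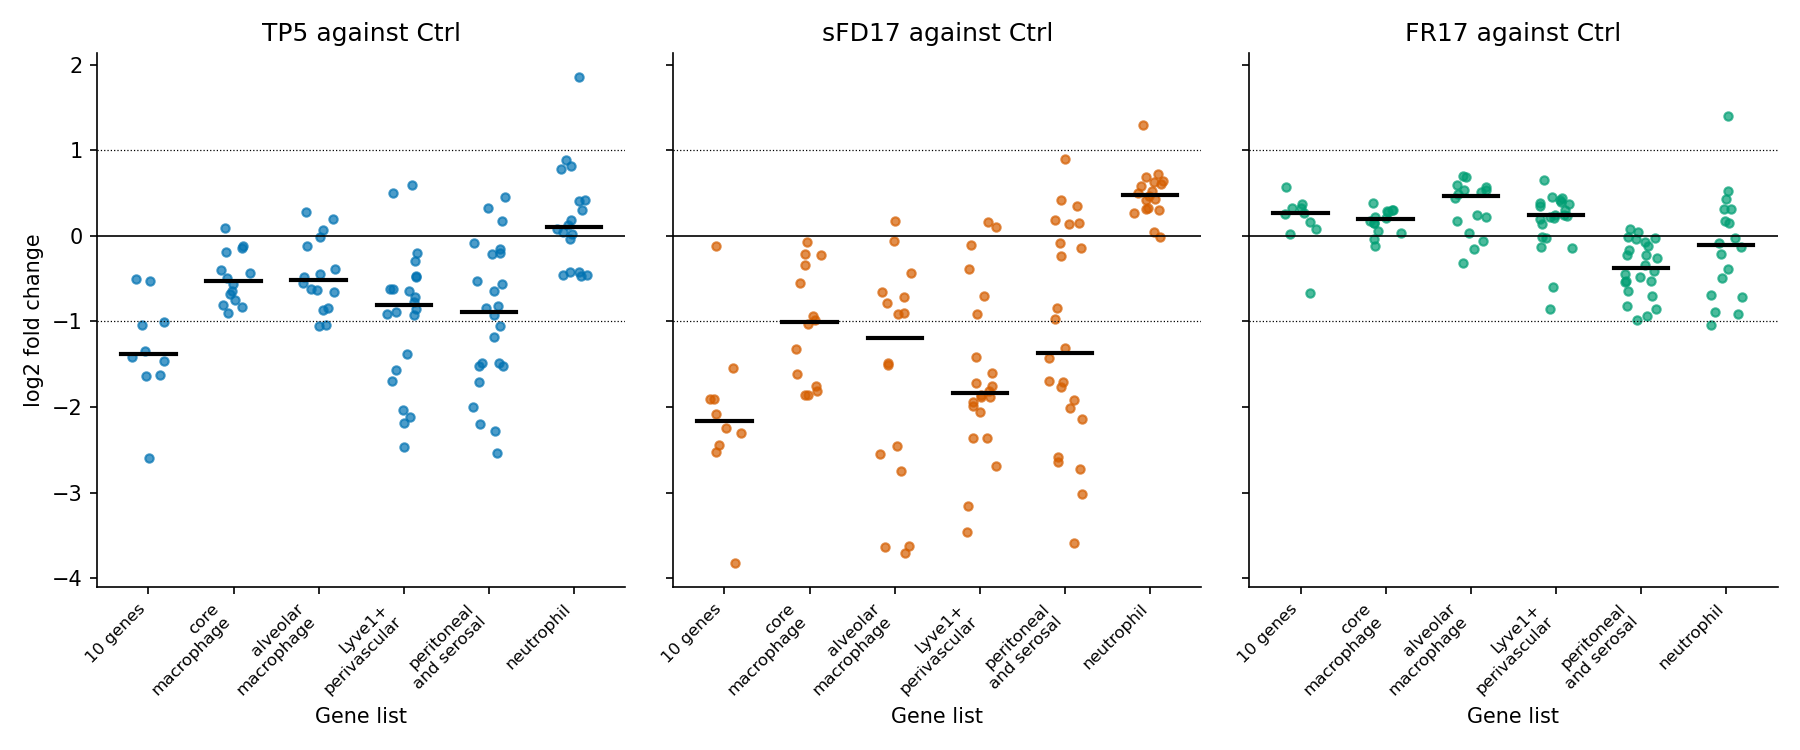
Log2 fold change of each tested gene against Ctrl, for the 10 genes and 5 lists of macrophage and neutrophil genes, with 1 panel per peptide. Points are genes, thick bars are medians and dotted lines mark 2-fold; in sFD17 the median is -2.16 for the 10 genes, -1.01 for core and -1.84 for perivascular macrophage genes, and above 0 for neutrophil genes.

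Mesothelial cells, which line the serosal cavities, were followed with 7 markers, since cells of such linings also make lubricin. Their sum was 754 counts in Ctrl, 505 in TP5, 153 in sFD17 and 1683 in FR17, but Krt19, which airway cells also express, made up 692, 458, 110 and 1541 of these. Without Krt19 the ratios to Ctrl were 0.730, 0.888 and 1.69, and Msln, a defining gene of the mesothelium, had 30, 16, 22 and 52 counts. Upk3b, another mesothelial gene, had 22, 10, 2 and 50 counts and was at 0.116 of Ctrl in sFD17, where Msln was at 0.939. Wt1, a mesothelial factor, was at 0 in Ctrl and TP5. The 8 fibroblast markers had ratios of 0.557, 0.832 and 1.03, the 11 blood endothelial markers of 0.736, 1.02 and 1.33, and the 10 monocyte markers of 1.16, 1.51 and 0.845. Without Nr4a1, the most counted monocyte marker, the monocyte ratios were 1.36, 1.77 and 0.946. In FR17, 6 of the 10 monocyte markers were higher than Ctrl and 4 lower. The part of these cells in the level of Prg4 was not tested.

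Between the peptides, 3 pairs were compared at the same labelled dose and time, again with 1 library each. FR17 differs from sFD17 in the order of the TP5 residues. All 10 genes were higher in FR17 than in sFD17, 9 of them by at least 2-fold and 0 lower, against 11.3% of all genes higher and 10.8% lower, or 25.7% and 4.78% with library size as the only scaling. The ratio was largest for Prg4 at 8.98 (7.71 to 10.5), followed by Folr2 at 7.35 (5.82 to 9.41), F7 at 7.16 (5.96 to 8.67) and Pf4 at 6.88 (6.04 to 7.86), and smallest for Cbr2 at 1.30 (1.23 to 1.36). The median log2 difference was 2.46 beside 0.07 over all genes.

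FR17 and TP5 share the TP5 sequence, which only FR17 carries on an assembling peptide. All 10 genes were higher in FR17 than in TP5, 9 of them by at least 2-fold and 0 lower, against 7.04% and 2.88% of all genes (9.77% and 1.92% by library size alone), with a median log2 difference of 1.52 beside -0.02. The ratios ran from 1.73 for Cbr2 (1.65 to 1.82) to 3.91 for Folr2 (3.34 to 4.59) and 3.84 for Prg4 (3.50 to 4.22). F7 and Maf were near the threshold, with ratios of 2.12 for F7 (1.93 to 2.34) and 2.13 for Maf (1.98 to 2.29).

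sFD17 and TP5 differ in both respects. F7, Cd163 and Prg4 were at least 2-fold lower in sFD17 than in TP5 and 0 were 2-fold higher, against 5.64% and 6.74% of all genes (10.1% and 4.33% by library size alone), with a median log2 difference of -0.90 beside -0.04. The ratio was 0.296 for F7 (0.242 to 0.361), 0.416 for Cd163 (0.379 to 0.455) and 0.428 for Prg4 (0.359 to 0.508). Pf4 lay just inside the threshold at 0.503 (0.433 to 0.583), and 6 genes passed it when libraries were scaled by size alone or by neutrophil markers. Cbr2 was 1.34-fold higher in sFD17 (1.26 to 1.42), or 1.05-fold with neutrophil scaling, where the interval holds 1 (0.987 to 1.11). All 3 pairs share the sFD17 or TP5 library on which the genes were chosen, so their direction adds nothing to that choice.

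The genes whose pattern came nearest to that of Prg4, Pf4, F7 and Maf were sought among 10184 protein-coding genes with at least 50 counts in Ctrl, by the Euclidean distance of their 3 log2 fold changes to the medians of those 4 genes (-1.23 in TP5, -2.35 in sFD17 and 0.20 in FR17). Nearest were the 6 genes Bmp2, a secreted growth factor (distance 0.127), Fxyd2 (0.158), B3galnt1 (0.237), Kcnh4 (0.286), Ltc4s, the enzyme that makes leukotriene C4 (0.292), and Clmn (0.321). Bmp2 had 212, 89, 34 and 326 counts in Ctrl, TP5, sFD17 and FR17, and Ltc4s 273, 116, 50 and 437. Of the 10 genes, Cd163 (0.258) and Pf4 (0.276) lay at similar distances from that median, and Prg4 (2.19) and Cbr2 (2.34) lay far from it. The gene nearest to Prg4 alone, sought after its values were seen, was Tgfb2, a growth factor gene of the serosal list, at a distance of 0.455, with 190, 39, 11 and 189 counts.

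Exons of 4 of the 10 genes overlap exons of a gene on the opposite strand in GENCODE M21, and the strand setting of the counting is not given in the sources used here, although the libraries were made with a directional kit, which marks strand. For Prg4, 204 of 4280 exon bases overlap Tpr, which had 1802, 2299, 1071 and 2540 counts in Ctrl, TP5, sFD17 and FR17. For Folr2, 975 of 1546 bases overlap Gm10602, which had 21, 14, 6 and 43 counts. The overlap was 440 bases with Gm15655 for Maf and 74 bases with Gm30489 for F13a1, genes with 0 and at most 6 counts. Whether the counting used the strand cannot be read from these values.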

How the data were processed

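The mRNA of 4 pooled libraries, 1 per group, was measured. Values are raw counts of reads on each gene, which the authors deposited unnormalized. The submitters' processing notes name HISAT2 2.0.5, StringTie 1.3.3b, featureCounts 1.5.0-p3, edgeR 3.18.1 and the build GRCm38.p6, with no role for each. Libraries were made with a directional kit. The strand setting of the counting is not given in the sources used here, and a wrong or absent one would add reads of overlapping genes. Where a symbol occurred more than once, as 100 of them did among the 54532 genes, its most counted row was taken.

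Counts were scaled with TMM factors of edgeR 4.0.16 in R 4.3.3, and log2 fold changes used a prior count of 2. Genes entered each comparison if any library had 10 counts or more, which left 16369, and a gene counted as moved past 2-fold. Totals of 15543071 to 19638228 counts set the precision. Counts carry exact Poisson intervals, ratios exact conditional binomial intervals and shares Wilson intervals. With 1 library per group no test was run. The procedure was tested on simulated data with Python 3.11.15 and scipy 1.17.1.

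The 10 genes, the gene lists and the alternatives were chosen with earlier results of these data known. Most genes outside the 10 were named by a rule: in each list the 3 with the most counts in Ctrl and the 3 with the largest change in sFD17 among those with at least 50 counts in sFD17 or Ctrl, and the 6 genes nearest to the median of Prg4, Pf4, F7 and Maf. Not every gene named by the rule is given here. Outside the rule, Ppbp, F3 and the gene nearest to Prg4 were picked after values were seen. Others, such as Gp1bb and Wt1 with counts of 0 and the genes of overlapping exons, are named as well. The alternatives were DESeq2 1.42.0 size factors, library size alone, scaling by neutrophil markers, TMM without the 10 most abundant genes, a prior count of 0.5, thresholds of 1.5-fold and 4-fold, counts of 10 in every library, no filter, and other reference lists for macrophages.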

Additional observations from a re-analysis of the deposited data

How the results depend on the processing

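Over 7 alternatives in scaling, prior count and filter, 0 of 420 log2 fold changes of the 10 genes changed direction, and 99 moved beyond their counting interval. With a 4-fold threshold, 6 genes were lower in sFD17 than in Ctrl (1.3% of all genes), 1 was lower in TP5 than in Ctrl (0.495%), 7 were higher in FR17 than in sFD17 (2.13%), 0 were higher in FR17 than in TP5 (0.953%) and 0 were lower in sFD17 than in TP5 (0.635%). With a 1.5-fold threshold, 1 gene was lower in FR17 than in Ctrl (11.7% of all genes) and 6 were lower in sFD17 than in TP5 (16.4%).

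With library size alone, the median log2 fold change was -2.38 in sFD17 and 0.51 in FR17 against Ctrl, 2.92 for FR17 against sFD17, 1.72 for FR17 against TP5 and -1.16 for sFD17 against TP5, where 6 genes were 2-fold lower, against 10.1% of all genes. It left 6 genes 2-fold lower in TP5 than in Ctrl, without Maf and Cd163, and moved the median of all genes to -0.23 in sFD17 and 0.26 in FR17 against Ctrl. With neutrophil scaling the same medians were -2.57, 0.53, 3.14, 1.85 and -1.24, and 6 genes were 2-fold lower in sFD17 than in TP5, against 12.4% of all genes. It moved the median of all genes to -0.43 in sFD17 and 0.28 in FR17. Without a filter the median in FR17 against Ctrl was 0.34, by the TMM factors of that gene set.

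Per core macrophage count without Apoe, the most abundant of those markers, the summed 10 genes were at 0.572 of Ctrl in sFD17 and 1.01 in FR17. Per alveolar macrophage count the values were 0.446, 0.683 and 0.826 in TP5, sFD17 and FR17. The alveolar sum itself moved from 0.958, 0.447 and 1.36 of Ctrl to 0.889, 0.626 and 1.18 without Chil3, its most abundant gene. The 10 genes were not set against the alveolar sum without Chil3. The median log2 fold changes of the core, alveolar, perivascular and serosal macrophage lists kept their sign in all 3 peptide libraries under the 4 other scalings. Those of the clotting, haem and iron, hyaluronan, folate and transcription factor lists changed sign in at least 1 library. The medians of the neutrophil, platelet, lymphatic and blood endothelial markers did so too. No paired analysis was possible because each group has 1 library. With library size alone or neutrophil scaling, the intervals of Maf and Timd4 in FR17 against Ctrl lay above 1. Depth limits Folr2 most, with 76 counts in sFD17.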
